A study of Mus musculus with 62 samples.

Results

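The cathepsins are the proteases of the lysosome, and cystatin C, encoded by Cst3, is the secreted inhibitor of those that use a cysteine in their active site. The 10 genes described here are Ctsa, Ctsb, Ctsc, Ctsd, Ctsf, Ctsh, Ctsl, Ctss, Ctsz and Cst3, taken by gene name from the 53975 gene identifiers of each long-RNA gene abundance table. Long RNA was measured in 17 libraries of mouse hippocampus and 14 libraries of HT-22 cells, a mouse hippocampal cell line. The mice were APP NL-G-F (called APP), a knock-in line in which a humanised App gene with familial Alzheimer mutations stays under its own promoter, or C57BL/6J (called WT). APP groups of 3 mice were taken at 3, 6 and 12 months of age, beside WT groups of 2 (at 3 months), 3 (at 6) and 3 (at 12), and left and right hippocampus of a mouse were pooled. HT-22 cells had been given an oligonucleotide of locked nucleic acid (LNA), either scramble or against Hsf1 (anti-Hsf1, 150 nM), followed by amyloid beta 1-42 (Aβ42) or its reverse-sequence control peptide (42-1), each at 30 uM. The 4 cell groups held 4 libraries for each peptide with the scramble LNA and 3 for each peptide with anti-Hsf1. As labelled, the scramble LNA was given at a micromolar dose, above that of anti-Hsf1, so the oligonucleotide and its dose cannot be told apart in the LNA comparisons. All cells thus received both an LNA and a peptide, and no untreated cells were among them.

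Cathepsins are made as inactive precursors, sorted to the lysosome and activated there by cleavage. Cathepsin D is an aspartic protease, cathepsin A a serine carboxypeptidase, and cathepsins B, L, S, F, C, H and Z are cysteine proteases of the papain family, which cystatin C can block. In the brain, neurons and glia all carry lysosomal proteases. Microglia are the cells best known for high cathepsin S, and cystatin C is abundant in astrocytes and choroid plexus.

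The promoters of 2 members that moved together in APP mice, and of 1 that did not move, are shown because the lysosomal transcription factor TFEB is known to bind the E-box CACGTG, which is common upstream of lysosomal genes. Each run holds the 250 bases before the RefSeq gene start (GRCm38.p6), 5′ to 3′ on the gene's strand. Capitals mark CACGTG, the longer form TCACGTG on either strand, which contains the first, and GAGGAAGT, a core bound by the myeloid factor PU.1.
Ctsd (chr7:142387828-142388077, minus strand): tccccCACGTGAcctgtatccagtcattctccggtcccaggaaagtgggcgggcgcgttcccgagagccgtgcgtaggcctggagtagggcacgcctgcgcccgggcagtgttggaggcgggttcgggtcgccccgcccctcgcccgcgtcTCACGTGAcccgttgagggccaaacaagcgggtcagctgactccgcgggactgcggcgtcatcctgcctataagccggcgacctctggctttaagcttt
Ctss (chr3:95526536-95526785, plus strand): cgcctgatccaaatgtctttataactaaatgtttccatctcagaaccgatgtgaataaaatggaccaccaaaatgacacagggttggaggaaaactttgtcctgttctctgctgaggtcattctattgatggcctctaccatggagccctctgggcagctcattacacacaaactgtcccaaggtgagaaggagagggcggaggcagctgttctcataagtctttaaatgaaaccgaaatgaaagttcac
Ctsf (chr19:4854915-4855164, plus strand): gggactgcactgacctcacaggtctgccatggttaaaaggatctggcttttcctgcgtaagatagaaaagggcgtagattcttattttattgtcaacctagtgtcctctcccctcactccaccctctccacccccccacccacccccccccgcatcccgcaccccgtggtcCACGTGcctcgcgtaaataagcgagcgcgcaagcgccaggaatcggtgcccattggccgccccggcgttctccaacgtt
The Ctsd promoter held CACGTG starting at bases -245 and -98 relative to the gene start, both as part of the longer form. Ctsf held the shorter form at -79, and the Ctss window held none of the searched letters. The table had promoters for 8 of the 10 members, not for Ctsb and Ctsh. These 8 genes had 9 promoters, and CACGTG was found on either strand in 4 of the 9 (Ctsd, Ctsl at -236, Ctsf and the second of the Ctsa promoters at -12), against 6.02% of all 32851 promoters of the same length. TCACGTG, in 3.13% of all promoters, was found for Ctsd and Ctsa. GAGGAAGT, in 2.44%, was found for Ctsc at -151. The Ctsl window (64370521 to 64370770) and the second Ctsa window (164833523 to 164833772) lay wholly inside the gene spans given below. Those of Ctsd and Ctsf reached partly into theirs, so not every site lay upstream of the gene as annotated in the deposited data. The members with the E-box thus included Ctsd, which rose in old APP mice, and Ctsf, which did not pass the test, and a match of letters is a description of the window only.

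Levels are given as scaled TPM, the deposited TPM (transcript abundance normalised for length and library total) divided by a median-of-ratios factor per library, computed within mouse and within HT-22 libraries separately. TPM is per transcript length, so levels of different genes can be compared. In the 8 WT hippocampi Cst3 stood highest with a median of 745 scaled TPM (514.5 to 950.5), followed by Ctsd with 129 (110.9 to 139.6) and Ctsb with 84.8 (80.6 to 89.0). These first 3 did not overlap. Below them came Ctss with a median of 34.5, Ctsa with 27.5, Ctsl with 26.9, Ctsf with 18.9 and Ctsz with 14.8, and each of these overlapped its neighbour in the order. Ctsc (6.81) and Ctsh (4.58) were lowest and overlapped each other. Read coverage behind the mouse values ran from a median of 568.2 reads per base for Cst3 to 1.52 for Ctsh, so the lowest genes rest on few reads.

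Facts of the libraries touch what follows. Xist, the RNA of the inactive X chromosome, stood at 70.6 to 137.4 scaled TPM in the 11 libraries of all APP groups and of WT mice at 3 months, and at 0.265 to 0.524 in the 6 WT libraries of 6 and 12 months. The Y-linked Ddx3y was at 18.8 to 28.2 in those 6 and at most 0.080 in the other 11. Genotype at 6 and 12 months therefore cannot be told apart from sex, while the ages of APP mice are all Xist-high. App itself had 352 ± 114 scaled TPM in APP and 254 ± 21.1 in WT mice at 12 months (SD, n = 3 each), a log2 difference of 0.41 that did not pass the test (limma, adjusted p = 0.739); these values do not separate the alleles. Hippocampal libraries held neuronal markers at a summed 1309 to 1885 scaled TPM.

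At 12 months, 6 of the 10 genes were higher in APP than in WT hippocampus: the aspartic protease gene Ctsd and the cysteine protease genes Ctsb, Ctsl, Ctss, Ctsc and Ctsz. Ctsd, Ctss and Ctsz were 2.74, 3.16 and 2.89 times higher, and Ctsb and Ctsl 1.41 and 1.45 times. The other 4, Ctsf, Ctsh, Ctsa and Cst3, did not pass the test. Calls are from limma on log2(scaled TPM + 1) at a Benjamini-Hochberg adjusted p below 0.05 over all 17840 genes tested, of which 0.42% were called higher in this comparison. The median log2 difference was 0.79 over the 10 genes and -0.005 over all genes tested. Folds are on the log2(value + 1) scale, which understates changes of low genes. With groups this small, a lack of overlap is a weak criterion. The share of all genes without overlap was not counted for any pair of groups. In bulk tissue, more cells of a type and more RNA per cell cannot be told apart.

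**Figure D1:**
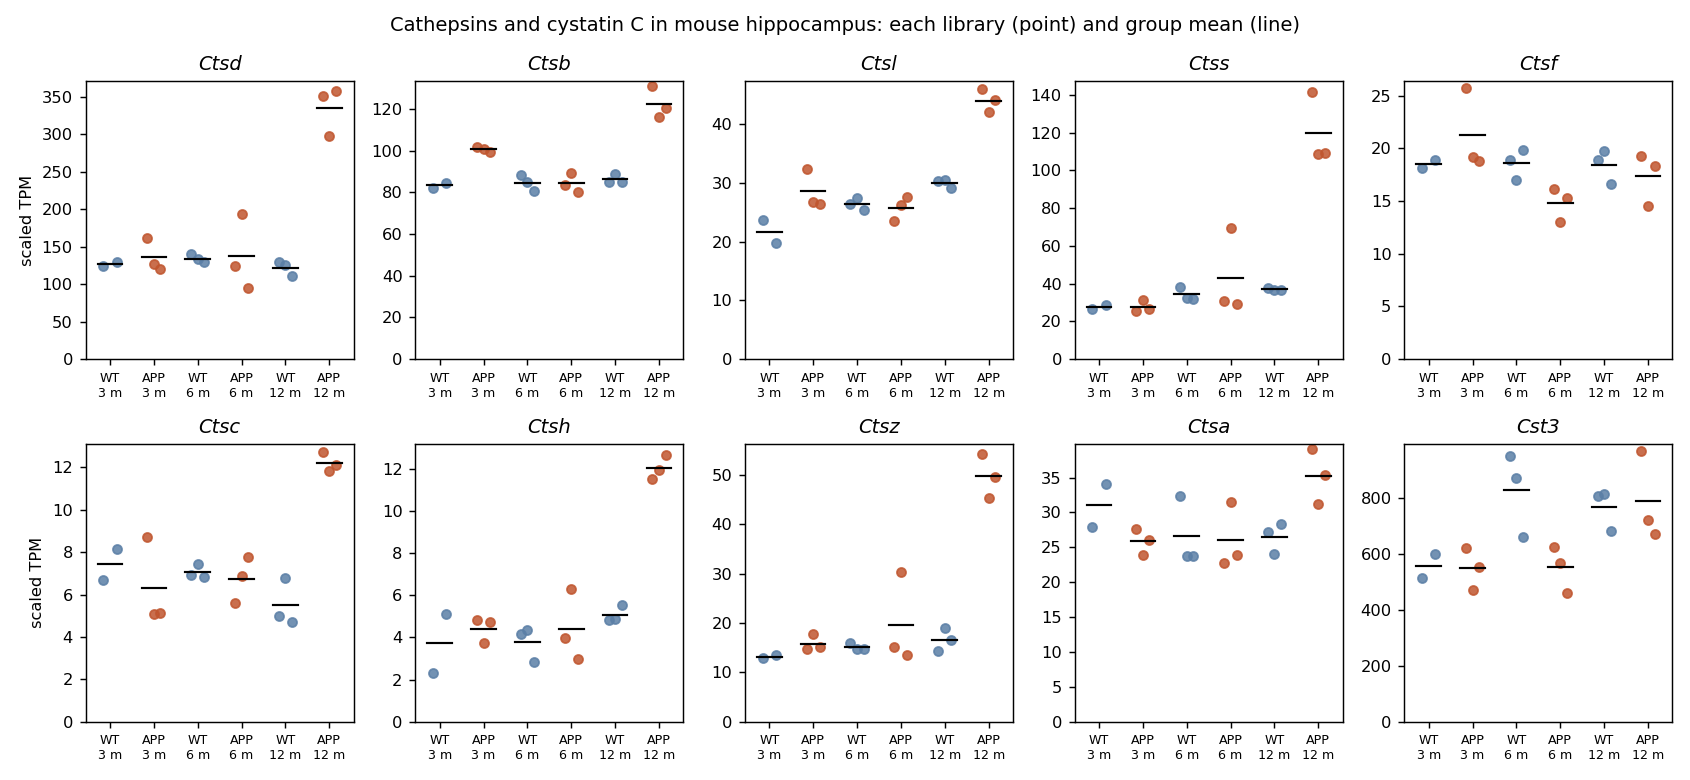
Level of each of the 10 genes (scaled TPM, linear axis from 0) in every mouse library, by genotype and age; points are libraries, blue for WT and orange for APP, and the line is the group mean. The 3 APP libraries of 12 months lie above all 14 others for Ctsd, Ctsb, Ctsl, Ctss, Ctsc, Ctsh and Ctsz.

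Cathepsin D is the main aspartic endopeptidase of the lysosome. Ctsd (ENSMUSG00000007891, chromosome 7, 142375911 to 142388038, minus strand) had 351.2, 297.8 and 358 scaled TPM in the APP libraries of 12 months and 129.4, 125 and 110.9 in the WT libraries. The groups lay far apart, and each of the APP libraries was above every WT library. The log2 difference was 1.45 (SE 0.19, adjusted p = 0.00271, limma).

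Cathepsin S is an endopeptidase that stays active at neutral pH and trims the invariant chain of MHC class II. Ctss (ENSMUSG00000038642, chromosome 3, 95526786 to 95556403, plus strand) had 141.6, 108.5 and 109.3 scaled TPM in APP and 37.48, 36.78 and 36.62 in WT mice at 12 months. The WT values were nearly equal, and 1 APP library stood above the other two. The log2 difference of 1.66 (SE 0.23, adjusted p = 0.00483, limma) was the largest of the 10.

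Cathepsin Z is a carboxypeptidase that also carries an integrin-binding motif in its propeptide. Ctsz (ENSMUSG00000016256, chromosome 2, 174427493 to 174439039, minus strand) had 54.27, 45.25 and 49.67 scaled TPM in APP and 14.26, 18.91 and 16.63 in WT mice. Again no library of one group came near the other. The log2 difference was 1.53 (SE 0.21, adjusted p = 0.0037, limma).

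Cathepsin C, or dipeptidyl peptidase I, activates serine proteases of immune granules. Ctsc (ENSMUSG00000030560, chromosome 7, 88278085 to 88310888, plus strand) had 12.72, 11.85 and 12.11 scaled TPM in APP and 4.995, 6.807 and 4.698 in WT mice, a log2 difference of 1.04 (SE 0.18, adjusted p = 0.0166, limma). Cathepsin H is an aminopeptidase. Ctsh (ENSMUSG00000032359, chromosome 9, 90054152 to 90076089, plus strand) had 11.52, 11.93 and 12.66 in APP and 4.805, 4.883 and 5.518 in WT mice. Its groups did not overlap and its log2 difference was 1.10 (SE 0.23), but its adjusted p was 0.0574.

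Cathepsins B and L are broadly expressed endopeptidases. Ctsb (ENSMUSG00000021939, chromosome 14, 63122462 to 63145923, plus strand) had 130.8, 116.1 and 120.4 scaled TPM in APP and 84.81, 88.96 and 84.87 in WT mice, a log2 difference of 0.50 (SE 0.08, adjusted p = 0.00998, limma). Ctsl (ENSMUSG00000021477, chromosome 13, 64359337 to 64370890, minus strand) had 46.01, 41.98 and 44.02 against 30.31, 30.45 and 29.03, a log2 difference of 0.54 (SE 0.10, adjusted p = 0.0246, limma). Both differences were smaller than those of Ctsd, Ctss and Ctsz, but replicates lay close together and the groups did not overlap.

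Cathepsin F is a papain-family endopeptidase. Ctsf (ENSMUSG00000083282, chromosome 19, 4855129 to 4860912, plus strand) had 19.24, 14.53 and 18.31 scaled TPM in APP and 18.9, 19.74 and 16.61 in WT mice, with groups that overlapped and a log2 difference of -0.09 (SE 0.14, adjusted p = 0.987, limma). Cathepsin A protects beta-galactosidase and neuraminidase 1 in a lysosomal complex. Ctsa (ENSMUSG00000017760, chromosome 2, 164832873 to 164841032, plus strand) had 39.04, 31.19 and 35.35 in APP and 27.14, 24.07 and 28.29 in WT mice. Its groups did not overlap, but the log2 difference of 0.39 (SE 0.15) had an adjusted p of 0.494.

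Cst3 (ENSMUSG00000027447, chromosome 2, 148871722 to 148875692, minus strand) was not called, unlike most of the proteases it inhibits. It had 968.5, 721.7 and 672.6 scaled TPM in APP and 807.3, 813.9 and 683.1 in WT mice at 12 months. These ranges overlapped fully, and the log2 difference was 0.02 (SE 0.18, adjusted p = 0.998, limma).

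**Figure D2:**
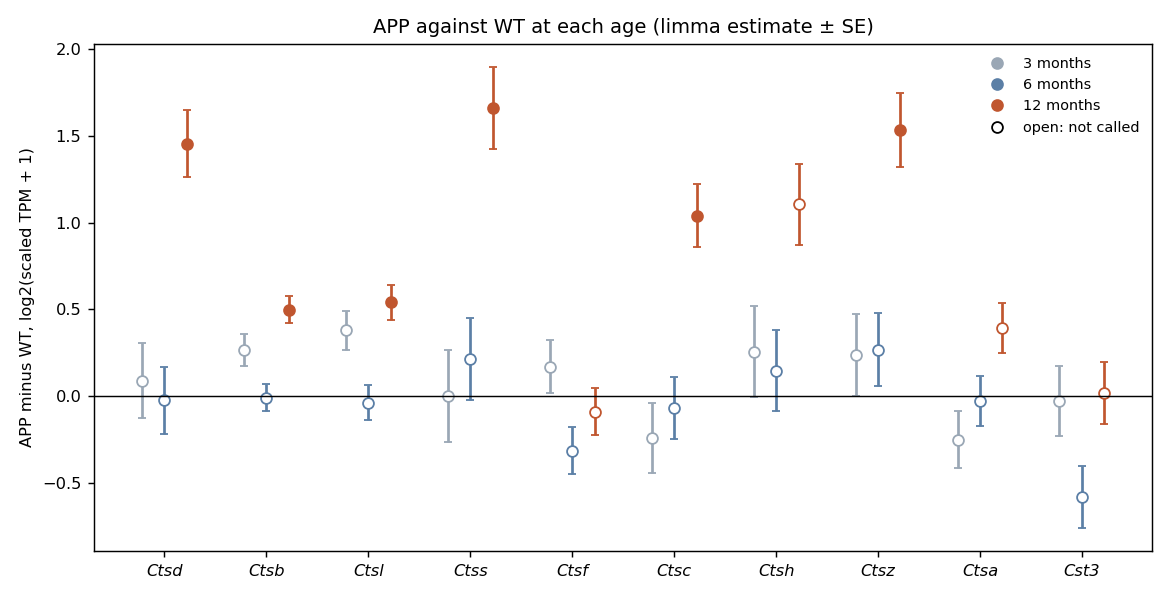
Difference of APP and WT hippocampus for each gene at 3, 6 and 12 months, on the log2(scaled TPM + 1) scale, with points for the limma estimate and bars for its SE; filled points passed the test. Filled points occur at 12 months alone, for 6 genes, with Ctss highest at 1.66 and Cst3 at 0.02.

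How far the 12-month calls held in fits with 1 library fewer differed between genes. Ctsd, Ctss and Ctsz passed the test in all 6 fits that left out 1 library of either group. Ctsl passed in 0 of 6, Ctsc in 1 of 6 and Ctsb in 2 of 6, although their log2 differences stayed between 0.51 and 0.57, between 0.95 and 1.18, and between 0.45 and 0.54. The count fell from 6 to 3 without APP replicate 1, APP replicate 3, WT replicate 1 or WT replicate 3. Some members overlap a neighbouring gene: Ctsd overlaps Gm49369, Ctss Hmgb1-ps5 and Ctsc Gm26522. Ctsl overlaps Gm49230 on its own strand and Gm47123 on the other. Ctsb overlaps Fdft1 on the other strand, Ctsz overlaps Nelfcd and Ctsa overlaps Pltp and Neurl2. No source used here says whether the counting used strand. Fdft1 (log2 difference -0.05), Nelfcd (-0.0031), Pltp (0.28) and Neurl2 (0.48) were not called at 12 months.

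For 7 of the 10 genes (Ctsd, Ctsb, Ctsl, Ctss, Ctsc, Ctsh and Ctsz) all 3 APP libraries of 12 months lay above all 14 other mouse libraries. Over all genes tested this was so for 222, or 1.24%. No member had those 3 libraries below all others.

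With age, APP mice rose in 6 of the 10 genes between 3 and 12 months: Ctsd (log2 difference 1.3), Ctsl (0.61), Ctss (2.07), Ctsc (0.89), Ctsh (1.27) and Ctsz (1.59). All genes tested were called higher in 1.92% of cases in this comparison. Ctss went from 25.38, 31.36 and 26.36 scaled TPM at 3 months to at least 108.5 at 12 months, 4.19 times higher with an adjusted p of 0.000711 (limma). Ctsh, short of the threshold against WT mice, had 4.817, 3.713 and 4.717 at 3 months and passed here (adjusted p = 0.00916, limma). Ctsb, with 101.8, 100.5 and 99.48 at 3 months, had a log2 difference of 0.28 (SE 0.08) and an adjusted p of 0.0747. Ctsf (-0.27, adjusted p = 0.339), Ctsa (0.43, adjusted p = 0.143) and Cst3 (0.51, adjusted p = 0.151) were not called either (limma). The Ctsc call held in 2 of 6 fits with 1 library left out, being lost without APP 3-month replicate 2 or any 1 of the 12-month libraries, and it was also lost when the fit used these 2 groups alone. Ctsl lost its call in that last fit and on TPM as deposited. Markers of other cells moved in this comparison too: 7 of 8 pan-myeloid and 8 of 8 plaque-associated microglia markers were called higher, and 5 of 6 oligodendrocyte markers lower, with a median log2 difference of -0.79. Summed pan-myeloid markers went from 62.3 to 75.7 scaled TPM up to 235 to 365, and oligodendrocyte markers from 1487 to 2447 down to 1052 to 1179, and their part in the cathepsin values was not tested. All these APP libraries are Xist-high, so this comparison is not one of sexes.

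Between 6 and 12 months APP mice were again higher in 6 of 10, now Ctsd (1.34), Ctsb (0.53), Ctsl (0.75), Ctss (1.56), Ctsh (1.32) and Ctsz (1.38), against 0.516% of all genes. Ctsc (0.78, adjusted p = 0.0751), Ctsf (0.21, adjusted p = 0.609), Ctsa (0.43, adjusted p = 0.270) and Cst3 (0.51, adjusted p = 0.282) were not called (limma). Of pan-myeloid and of plaque-associated markers 5 of 8 each were called higher, and 0 of 6 oligodendrocyte markers were called. The count was 0 without APP 12-month replicate 1, 2 without APP 6-month replicate 3, and 0 when the fit used these 2 groups alone. In these 3 fits the 6 genes stayed higher at 12 months, with log2 differences within the ranges of single omissions, such as 1.10 to 1.62 for Ctsd and 1.34 to 1.95 for Ctss. These comparisons with 3 and 6 months share the same 3 APP libraries of 12 months with each other and with the comparison with WT.

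In WT mice no member passed the test between any 2 ages. Over all genes, 0% were called between 6 and 12 months, 0.0617% between 3 and 12 months and 0.185% between 3 and 6 months (limma, either direction). At an unadjusted p below 0.05 there were 0, 2 and 2 of 10 members, against 6.83%, 8.27% and 14% of all genes, with Ctsl and Cst3 in both cases with 3 months. Ctsl had 23.62 and 19.74 scaled TPM at 3 months and 30.31, 30.45 and 29.03 at 12 months, a log2 difference of 0.45 (SE 0.11, adjusted p = 0.274, limma). Cst3 had 514.5 and 599.5 at 3 months and 683.1 to 813.9 at 12 months (log2 difference 0.46, SE 0.20, adjusted p = 0.565, limma). Both have WT groups without overlap, though the share of all genes without overlap was not counted. WT mice of 3 months differ from the older ones in Xist and Ddx3y as well as in age.

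The test of whether the genotype difference itself grew with age called no member. From 3 to 12 months the difference grew by 1.36 for Ctsd (SE 0.29, adjusted p = 0.114), 1.66 for Ctss (SE 0.35, adjusted p = 0.115), 1.28 for Ctsc and 1.29 for Ctsz, and 0.0729% of all genes were called (limma interaction term). From 6 to 12 months, where the sexes are composed alike at both ages, it grew by 1.47 for Ctsd (SE 0.27, adjusted p = 0.101), 1.44 for Ctss, 1.26 for Ctsz and 1.11 for Ctsc, with 0.0224% of all genes called. At an unadjusted p below 0.05, 6 members were higher in the first and 8 in the second interaction, against 10.1% and 10.2% of all genes in either direction. Without APP 6-month replicate 2, 3 members passed the second interaction. Without APP 3-month replicate 1, 1 member passed the first, and 3 passed it when only the groups involved were fitted.

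No member passed the test between genotypes at 3 months, when 0.303% of all genes were called in either direction. At an unadjusted p below 0.05 there were 2 of 10 members, Ctsb and Ctsl, a share near the 13.4% of all genes. Ctsb had 101.8, 100.5 and 99.48 scaled TPM in APP and 82.26 and 84.59 in WT mice, groups that did not overlap, with a log2 difference of 0.27 (SE 0.09, adjusted p = 0.204, limma). Ctsl had 32.41, 26.81 and 26.36 in APP and 23.62 and 19.74 in WT mice, with a log2 difference of 0.38 (SE 0.11, adjusted p = 0.158, limma). How many of all genes lacked overlap between these groups was not counted. Ctss, the member with the largest difference at 12 months, had a log2 difference of 0.0022 (SE 0.26) at 3 months. The other 7 were between -0.25 (Ctsa) and 0.26 (Ctsh), with Ctsc at -0.24, Cst3 at -0.03, Ctsd at 0.09, Ctsf at 0.17 and Ctsz at 0.24.

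At 6 months again no member was called, against 1.66% of all genes. At an unadjusted p below 0.05 there were 2 of 10, both lower in APP mice, a share near the 17% of all genes. Cst3 had 625.2, 567.8 and 461.7 scaled TPM in APP and 950.5, 870.2 and 659.9 in WT mice, without overlap, and a log2 difference of -0.58 (SE 0.18, adjusted p = 0.108, limma). Ctsf had 16.11, 13.02 and 15.25 in APP and 18.88, 17 and 19.9 in WT mice (no overlap, log2 difference -0.31, SE 0.14, adjusted p = 0.252, limma). How many of all genes lacked overlap at this age was not counted. The other 8 log2 differences were between -0.07 (Ctsc) and 0.27 (Ctsz), with Ctss at 0.22, Ctsh at 0.15, Ctsd at -0.02, Ctsb at -0.0063, Ctsl at -0.04 and Ctsa at -0.03. Within APP mice no member differed between 3 and 6 months beyond the threshold, where 2.36% of all genes did, and at an unadjusted p below 0.05 there were 3 members (Ctsb, Ctss and Ctsf) and 18.6% of all genes. The interaction of genotype with age from 3 to 6 months called no member either, against 1.61% of all genes, and 3 (Ctsb, Ctsl and Ctsf) had an unadjusted p below 0.05, as had 18.7% of all genes.

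The 6-month comparison turns with the scaling. On TPM as deposited, 8 of the 10 genes were called higher in APP mice, but so were 57.6% of all genes tested, and the median difference over all genes was 0.60 on the log2 scale. The scaling factors ran from 1.12 to 1.46 in APP and from 0.688 to 0.836 in WT libraries of 6 months. At 12 months the same median was 0.12, and Ctsd, Ctss and Ctsz stayed at 1.60, 1.80 and 1.67. Cst3 at 6 months went from -0.58 scaled to 0.14 as deposited (adjusted p = 0.493, limma), and Ctsf from -0.31 to 0.36 (adjusted p = 0.0923), so the direction of both there depends on the scaling.

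One APP mouse of 6 months stood above the other 2 in Ctsd, Ctss, Ctsz, Ctsh and Ctsa. Its library, replicate 2, had 193.5 scaled TPM of Ctsd against 124.6 and 94.79 in the others. Ctss was at 69.64 against 30.69 and 29.29, Ctsz at 30.43 against 15.07 and 13.54, and Ctsh at 6.313 against 3.958 and 2.958. Ctsa was at 31.48 against 22.79 and 23.95. Ctsb (89.01 against 83.52 and 80.06), Ctsl (26.29 between 23.44 and 27.65) and Ctsc (6.889 between 5.589 and 7.78) did not stand out there. Cst3 (567.8) lay between the others as well, and Ctsf was lowest in it (13.02 against 16.11 and 15.25). In the same library the plaque-associated marker Clec7a had 7.858 scaled TPM against 0.2461 and 0.2034, the pan-myeloid marker Trem2 had 16.73 scaled TPM against 4.266 and 2.009, and the astrocyte marker Gfap had 357 scaled TPM against 149.2 and 119.3. Cst7, another cystatin gene, had 8.898 scaled TPM against 0.6576 and 0. The part of these cells in the cathepsin values was not tested.

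The balance of inhibitor and proteases is given as a description. The summed level of the 7 cysteine cathepsin genes was 377.6 ± 34.4 scaled TPM in APP and 198.7 ± 6.84 in WT mice at 12 months (SD, n = 3 each), and 176 to 205 on average in the other mouse groups. Cst3 per unit of that sum was 2.08 (1.84 to 2.33) in APP mice and 3.86 (3.52 to 4.13) in WT mice at 12 months. At 6 months it was 2.82 (2.35 to 3.51) and 4.34 (3.62 to 4.79), and at 3 months 2.68 (2.30 to 2.91) and 3.17 (2.98 to 3.36). At each age the APP libraries lay below the WT libraries of that age, which was not tested. At 3 months the nearest libraries were at 2.91 and 2.98, with 2 WT libraries. At 6 and 12 months genotype cannot be told apart from sex. The ratio within a library does not depend on the scaling, while the sums do. These are transcript ratios, not amounts of protein or activity. The make-up of the sum differed too: Ctss was 31.6% of it in APP and 18.6% in WT mice at 12 months, and Ctsb 32.5% and 43.4%.

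**Figure D3:**
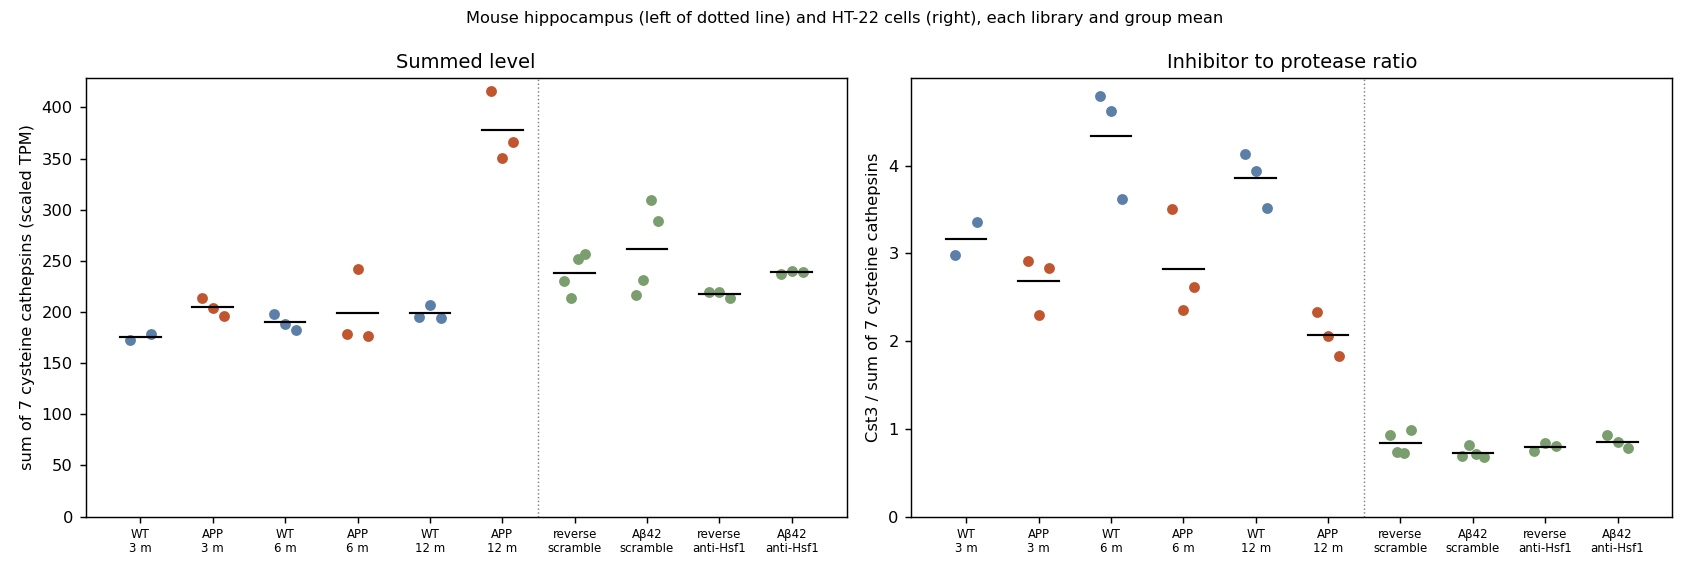
Left, the sum of the 7 cysteine cathepsin genes (scaled TPM), and right, Cst3 divided by that sum, in every library of the 6 mouse and 4 HT-22 groups; lines are group means. The sum is highest in APP mice at 12 months (mean 377.6), and the ratio lies below 1 in all HT-22 libraries.

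Beside the cathepsins, the marker lists of myeloid cells moved at 12 months. Of 8 pan-myeloid markers, 5 were called higher in APP than in WT mice (Ptprc, Tyrobp, Laptm5, C1qa and C1qb), and their summed level was 235 to 365 scaled TPM against 86.2 to 95.0. Of 8 markers of plaque-associated microglia, 6 were called higher (Itgax, Clec7a, Spp1, Gpnmb, Ccl6 and Cd9), with sums of 139 to 175 against 56.8 to 61.3. Of 8 homeostatic microglia markers, 2 were (Csf1r and Gpr34), with sums of 114 to 123 against 77.5 to 93.7, and P2ry12 was at 20.04 ± 2.21 and 19.6 ± 2.72 (SD, n = 3 each). Border macrophage markers were called in 0 of 1 tested, with sums of 2.01 to 7.41 and 2.52 to 6.12. Of 7 astrocyte markers 1 was called (Gfap), of 5 mesenchymal markers 1 (Vim), and none of 7 neuronal, 6 oligodendrocyte, 6 choroid plexus, 4 endothelial and 5 blood markers. Choroid plexus markers, a source of Cst3, summed to 1439 to 1663 in APP and 424 to 1312 in WT mice at 12 months, and to 39.1 to 911 and 1141 to 1359 at 6 months. The part of these cell types in the cathepsin values was not tested.

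Divided by the summed pan-myeloid markers, Ctss was 0.415 ± 0.040 in APP and 0.410 ± 0.016 in WT mice at 12 months, Ctsz 0.174 ± 0.022 and 0.185 ± 0.035, and Ctsd 1.17 ± 0.18 and 1.35 ± 0.11 (SD, n = 3 each). For all 3 these ratios overlapped between the genotypes. Ctsb per pan-myeloid level was 0.429 ± 0.068 and 0.957 ± 0.070 and did not overlap. Ctsl (0.155 ± 0.026 and 0.332 ± 0.019) and Ctsc (0.043 ± 0.0078 and 0.061 ± 0.015) were also lower in APP mice without overlap. The same held for Ctsf, Ctsa and Cst3, while Ctsh overlapped. Divided by the summed homeostatic markers, Ctss was 1.03 ± 0.19 and 0.438 ± 0.036, and Ctsd 2.89 ± 0.40 and 1.44 ± 0.06, while Ctsb was 1.05 ± 0.10 and 1.02 ± 0.10. Whether a cathepsin kept pace with microglial markers therefore depended on the markers taken, and these ratios are given without a test.

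Across the 17 mouse libraries the members varied together to different degrees. Pearson's r of log2(scaled TPM + 1) was 0.979 for Ctss and Ctsz, 0.947 for Ctsd and Ctsz and 0.928 for Ctsd and Ctss. It was lower among others, such as 0.681 for Ctsl and Ctsc, 0.614 for Ctsb and Ctsa and 0.475 for Ctsl and Ctsa. Ctsf had r between -0.33 (with Ctss) and 0.17 (with Cst3), and Cst3 between 0.17 and 0.43 with the 9 cathepsin genes. Libraries share group, age and scaling, and much of the spread is the step of the 12-month APP mice, so these values are descriptions.

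**Figure D4:**
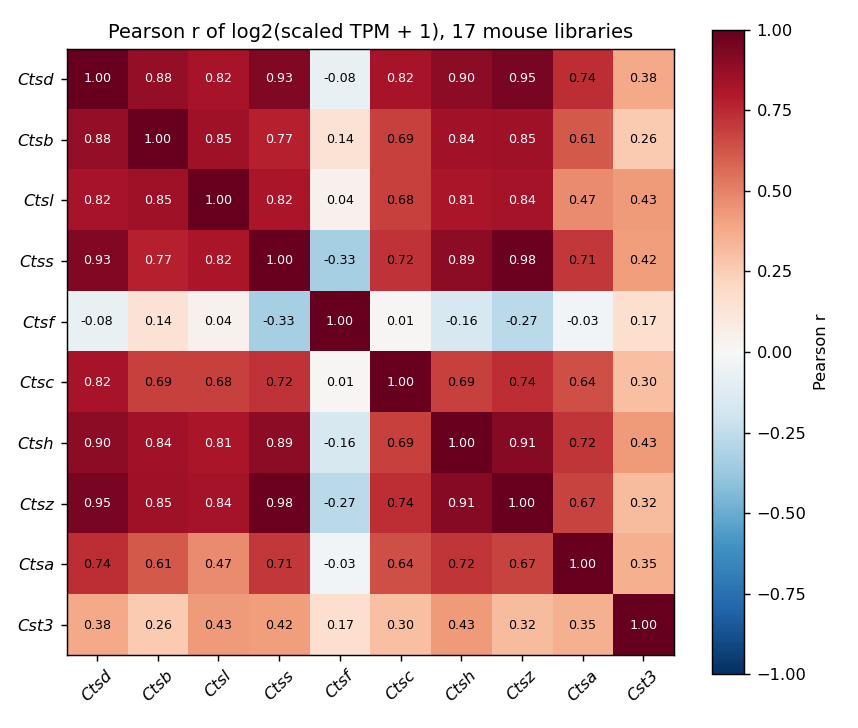
Pearson's r between the 10 genes over the 17 mouse libraries, on log2(scaled TPM + 1); red is positive and blue negative. Ctss and Ctsz are the closest pair at 0.98, and Ctsf and Cst3 form the pale rows.

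The genes most like each member, by the same r over 17 libraries, differed between members. For Ctss they were Tyrobp (0.985), AU020206 (0.981) and C1qb (0.978), and without the 3 APP libraries of 12 months Tyrobp had 0.921 over the other 14. Without those 3 libraries r was 0.719 for Ctsd and Cst7, 0.749 for Ctsd and Ptprc, 0.770 for Ctsh and C1qa, and 0.706 for Ctsl and H2-M3. It was lower for some pairs, at 0.450 for Ctsb and Cd9, 0.517 for Ctsb and H2-M3 and 0.577 for Ctsc and Tgfbr2. It stayed at 0.880 for Ctsf and Tubb3 and at 0.902 for Cst3 and Rplp1. For Ctsz they were Mpeg1 (0.981), AU020206 (0.979) and Itgax (0.973), for Ctsd they included Cst7 (0.956) and Ptprc (0.953), and for Ctsh C1qa (0.935) and Fcer1g (0.933). For Ctsf, in contrast, they were Tubb3 (0.880), Cdk5 (0.844) and Gm1673 (0.843), the first a tubulin of neurons. For Cst3 they were the ribosomal protein gene Rplp1 (0.899), the pseudogene Rpl10-ps3 (0.887) and Rps27rt (0.883). Ctsb was closest to Rassf4 (0.886), H2-M3 (0.876) and Cd9 (0.872), and Ctsl to H2-M3 (0.925), Oard1 (0.884) and S100b (0.882). Ctsc was closest to Efemp2 (0.863), Tgfbr2 (0.855) and Tcn2 (0.838), and Ctsa to Itgb2 (0.818), Clic1 (0.815) and Dock8 (0.804).

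Other genes of the 2 families were sparse. Of 12 further cathepsin, cystatin and legumain genes, 5 were expressed highly enough to be tested and 1 was called higher at 12 months in APP mice. This was Cst7, cystatin F, an inhibitor of cysteine cathepsins in immune cells, with 31.4 ± 5.42 scaled TPM in APP and 0.215 ± 0.202 in WT mice (SD, n = 3 each; log2 difference 4.74, SE 0.58, adjusted p = 0.00146, limma). Cst7 was thus far below Cst3 even where it was highest. Lgmn, a protease that cleaves cathepsin precursors, had 52.0 ± 3.36 and 38.1 ± 1.99 (log2 difference 0.44, SE 0.13, adjusted p = 0.269, limma), and Cstb, an inhibitor inside cells, 17.5 ± 2.51 and 15.3 ± 1.55. Ctse, an aspartic protease related to cathepsin D, was listed at 0 in every mouse library except the 3 APP libraries of 12 months, where it had 0.186 to 0.467.

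Among 37 lysosomal partner genes, 36 were tested and 7 were called higher at 12 months in APP mice, with a median log2 difference of 0.16 against -0.005 for all genes. Among them were Cd68, a macrophage lysosomal membrane protein (log2 difference 1.83), the glycosidase genes Hexa (1.08), Gusb (1.01) and Man2b1 (0.74), the cholesterol carrier Npc2 (0.82) and Grn (0.81), whose product progranulin is cut by cathepsins. Between 3 and 12 months in APP mice the same 7 genes were called, and between 6 and 12 months 5, with Cd63 in place of Cd68, Grn and Gusb. At 3 and 6 months 0 of 36 were called (limma), with 6 and 6 at an unadjusted p below 0.05, near the shares of all genes (13.4% and 17%). The other 29 genes, among them Lamp1, the proton pump subunits and the transcription factors Tfeb and Tfe3, did not pass the test at 12 months.

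In HT-22 cells the members stood in another order. Ctsf, Ctsc and Ctsh were listed at 0 in all 14 libraries and Ctss had at most 0.502 scaled TPM, so 6 members were tested. Medians over the 14 libraries were 197.5 for Ctsd (171.4 to 217.2), 186.8 for Cst3 (150.3 to 252.8), 130.7 for Ctsl (122.7 to 201.2), 71.4 for Ctsa (58.2 to 106.5), 54.9 for Ctsz (41.6 to 59.7) and 47.8 for Ctsb (42.1 to 51.8). In this order Ctsd and Cst3 overlapped, as did Cst3 with Ctsl, Ctsa with Ctsz and Ctsz with Ctsb. Ctsl made up 56.0% to 60.4% of the summed cysteine cathepsins on average in the 4 groups, a share of 11.7% to 15.1% in the mouse groups. Cst3 per unit of that sum was 0.725 to 0.850 on average in the 4 groups. Mouse and HT-22 libraries were scaled separately, and no test was made between them.

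The label of a hippocampal line was checked against markers. Of 7 neuronal markers, 5 were listed at 0 in every HT-22 library, Rbfox3 and Snap25 among them, and all 7 stayed below 1 TPM. All 8 pan-myeloid markers stayed below 1 TPM and 6 were listed at 0 throughout, including Tyrobp. Of the 8 plaque-associated microglia markers, however, 5 were tested in these cells. Their list summed to 177 to 360 scaled TPM here and 52.5 to 175 in hippocampus, so that sum is not specific to microglia. The 5 mesenchymal markers, which include collagens, fibronectin and vimentin, were all tested, with sums of 3557 to 6161 scaled TPM against 24.2 to 53.6 in hippocampus. The defining markers of hippocampal neurons were thus at or near 0 in these cells.

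**Figure D5:**
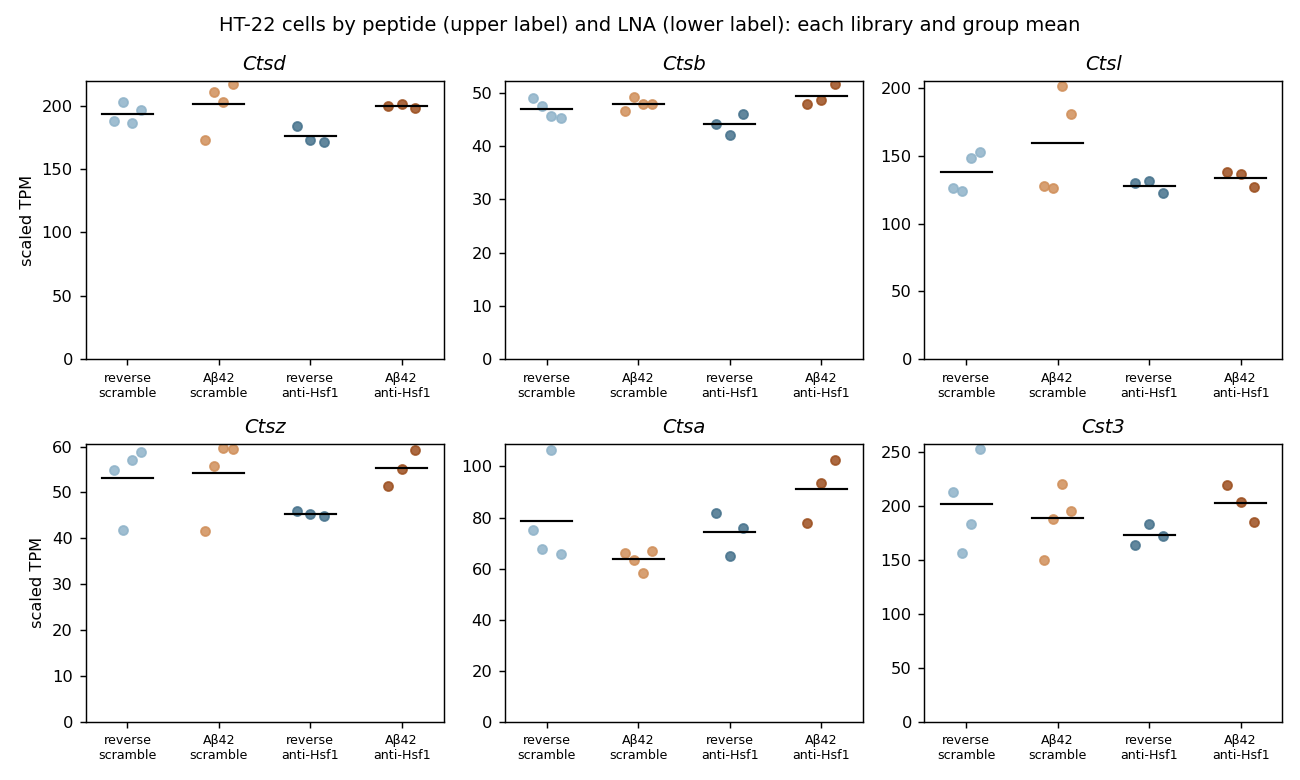
Level of the 6 genes tested in HT-22 cells (scaled TPM, linear axis from 0) in each of the 14 libraries, by peptide and LNA; lines are group means. The Ctsa libraries with Aβ42 and anti-Hsf1 (78.0 to 102.7) lie above those with Aβ42 and scramble (58.2 to 66.9). With anti-Hsf1, the Aβ42 libraries lie above the reverse-peptide libraries for Ctsd, Ctsb, Ctsz and Cst3. Under the reverse peptide, the Ctsd libraries with anti-Hsf1 lie below those with scramble. None of these differences passed the test, and the direction of the peptide differences with anti-Hsf1 depends on the scaling.

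Hsf1, the target of the LNA, was 47.2 ± 4.07 scaled TPM with anti-Hsf1 (n = 3) and 61.6 ± 9.31 with scramble (n = 4) under Aβ42, and 48.2 ± 4.81 and 53.8 ± 7.89 under the reverse peptide (SD). Neither difference passed the test (log2 -0.37, SE 0.14, adjusted p = 0.521, and -0.15, SE 0.14, adjusted p = 0.959, limma).

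Aβ42 against the reverse peptide called 0 of 6 members and 0% of 17291 genes with the scramble LNA, and 0 of 6 and 0% with anti-Hsf1 (limma). At an unadjusted p below 0.05 there were 0 members in both cases, and 5.01% and 4.59% of all genes. With the scramble LNA the 6 log2 differences lay between -0.28 (Ctsa) and 0.18 (Ctsl), with SEs of 0.07 to 0.15. With anti-Hsf1 they lay between 0.06 (Ctsl) and 0.29 (Ctsa), with SEs of 0.08 to 0.17. Ctsd had 173.3, 211.1, 203.1 and 217.2 scaled TPM with Aβ42 and 187.8, 202.8, 186.6 and 196.6 with the reverse peptide under scramble LNA, and the groups overlapped. Under anti-Hsf1 it had 199.9, 201.3 and 198.4 with Aβ42 and 183.6, 173 and 171.4 with the reverse peptide, without overlap. Ctsb, Ctsz and Cst3 were also higher with Aβ42 without overlap there, while Ctsl and Ctsa overlapped. How many of all genes separated in this way was not counted. On TPM as deposited the log2 differences there were negative: -0.40 (Ctsd), -0.42 (Ctsb), -0.30 (Ctsz) and -0.36 (Cst3). The median over all genes was then -0.52, so the direction of these separations depends on the scaling.

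Anti-Hsf1 against scramble called 0 of 6 members under the reverse peptide, where 0% of all genes were called and 0 members had an unadjusted p below 0.05. Under Aβ42 it called 0 of 6, with 0.0231% of all genes called, and 1 member, Ctsa, had an unadjusted p below 0.05, as had 8.99% of all genes. Ctsa had 77.99, 93.35 and 102.7 scaled TPM with anti-Hsf1 and 66.16, 63.29, 58.17 and 66.91 with scramble, without overlap. Its log2 difference was 0.51 (SE 0.16, adjusted p = 0.435, limma). The interaction of peptide and LNA called 0 of 6 members and 0% of all genes, with Ctsa again the 1 member at an unadjusted p below 0.05 (0.57, SE 0.22, adjusted p = 0.861, limma), beside 5.2% of all genes.

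On TPM as deposited the Aβ42 comparison of the LNAs called 5 of the 6 members lower (all but Ctsa), beside 50.5% of all genes, with a median over all genes of -0.62. The scaling factors of the libraries with Aβ42 and anti-Hsf1 were 0.639 to 0.855, and those with Aβ42 and scramble 1.12 to 1.23. After scaling, Ctsd had 199.9, 201.3 and 198.4 with anti-Hsf1, inside the range of the scramble libraries, and a log2 difference of -0.0043 (SE 0.10).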

How the data were processed

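Long RNA of 17 mouse hippocampi and 14 HT-22 cultures was analysed, and the 31 short-RNA files were not used here. Per the submitters' processing notes, tools included cutadapt 1.18, HISAT2 2.1.0, StringTie 1.3.4d, BWA 0.7.17 and bedtools 2.26.0, on mm10 (GRCm38), with roles not given. Per the file headers, the authors deposited TPM per gene, summing to 999823 to 999917 per library, and a coverage signal, the mean read depth per gene. TPM keeps no depth, so no count model was run and reads per gene are unknown; the number of mice limits the precision. Rows sharing a gene identifier were summed.

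TPM was divided by median-of-ratios factors (17141 mouse and 15757 HT-22 genes), and log2(scaled TPM + 1) was tested with limma 3.58.1 (R 4.3.3; trend, robust) on genes with mean TPM of at least 1, with 6 mouse groups in 1 fit and 4 HT-22 groups in another. Benjamini-Hochberg adjustment ran over all genes tested. The fit was tested on simulated data. Libraries of a group were separate mice or, in HT-22 cells, labelled biological replicates. They were treated as unpaired, since in no comparison did every pair of equal replicate number have deviations correlated above 0.1. That rule cannot show that pairs are absent. Between the peptides under scramble LNA, r ran from -0.22 to 0.57, so some HT-22 replicates of equal number varied together.

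The rule named all 10 members, every called gene of the 2 partner lists and the 3 genes closest to each member. In the comparisons of WT ages, the interactions and APP at 6 against 3 months, members short of the threshold are partly given as counts, and 1 gene is counted but not reported here by name. Members and lists were chosen with earlier results of these data known. Alternatives were TPM as deposited, upper-quartile and quantile scaling, a pseudocount of 0.1, other TPM filters, no trend, array weights, a replicate block, fits of only the groups compared, and leaving out each library. Descriptions used Python 3.11.15. Promoters came from RefSeq.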

Additional observations from a re-analysis of the deposited data

Results flagged for a closer look

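Ctsa was singled out because its genotypes separated in opposite directions at 2 ages. All 3 APP libraries were above all WT libraries at 12 months (log2 difference 0.3936), and all 3 were below both WT libraries at 3 months (-0.2486). Neither difference passed the test (adjusted p = 0.494 and 0.567, limma). The nearest libraries at 3 months had 27.63 in APP and 27.93 scaled TPM in WT mice. At 12 months genotype cannot be told apart from sex, and how many of all genes show such a pattern was not counted. This opposite separation was not tested as such; the fitted interaction from 3 to 12 months was 0.64 (SE 0.22) with an adjusted p of 0.313 by limma. In HT-22 cells, 12 groups of 4 libraries (6 genes in 2 groups) were searched for a library far from the rest, and none was found. That search cannot see a group split into pairs. With scramble LNA and Aβ42, Ctsl had 128 and 126 in replicates 1 and 2, and 201.2 and 181.1 in 3 and 4. With the reverse peptide it had 126.1 and 124.1, and 148.6 and 152.4, in the same order.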

How the results depend on the processing

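Of 2602 refits of single genes under other settings, 2513 kept direction and side of the threshold, 45 lost a call, 30 gained one and 14 turned, all 14 on TPM as deposited; differences uncalled in both fits whose sign changed (169) are counted as kept. The turned log2 differences were 0.6909 (Ctsd), 0.7031 (Ctsb), 0.6549 (Ctsl), 0.5583 (Ctsc) and 0.6646 (Ctsa) for APP against WT at 6 months, -0.5745 (Ctsb) for WT at 6 against 3 months, 0.7933 (Ctsd) and 0.6275 (Ctsb) for the interaction of 6 against 3 months, and in HT-22 cells -0.4158 (Ctsb) for Aβ42 under anti-Hsf1, -0.6641 (Ctsb), -0.6666 (Ctsz) and -0.6023 (Cst3) for anti-Hsf1 under Aβ42, and -0.6215 (Ctsd) and -0.6113 (Ctsb) for the interaction. Members called on TPM as deposited numbered 8 at 6 months, 1 for APP at 6 against 3 months, 3 for APP at 12 against 6 months, 3 for WT at 6 against 3 months, 4 and 6 for the interactions of 12 and 6 against 3 months, and 1, 5 and 3 in those HT-22 comparisons. In the direction of those members, the calls over all 17840 mouse genes were 10267, 1207, 21, 6049, 77 and 7892 in the same order. Over all 17291 HT-22 genes they were 4190, 8740 and 4369, so most of these member counts came with a shift of many genes. The interaction of 12 against 3 months had 1 call with array weights and 3 in a fit of only the groups compared, and APP at 12 against 6 months had 0 in such a fit. Leaving out single libraries gave 3 to 5 calls at 12 months, 0 to 6 for APP at 12 against 6 months, 0 to 1 for the interaction of 12 against 3 months and 0 to 3 for that of 12 against 6 months. The causes were not tested, beyond the shift of all genes given above and the fewer libraries. With a replicate block 6 members were called at 12 months, and the block changed no count. Read coverage limits Ctsh and Ctsc most.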
